A study of Mus musculus with 4 samples.

Results

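The clustered protocadherins are a family of cell surface adhesion genes that lie in 3 neighbouring groups on mouse chromosome 18. They were taken as every gene symbol of the deposited table that carries a Pcdha, Pcdhac, Pcdhb, Pcdhga, Pcdhgb or Pcdhgc name, which gave 59 of 23235 symbols. The alpha cluster held 15 of them, the beta cluster 22 and the gamma cluster 22, the last made of 12 A-type, 7 B-type and 3 C-type members. RNA was sequenced in 4 mouse cultures of strain 129S4/SvJae, with 1 library each and therefore no replicate. WT_ES was wild-type embryonic stem (ES) cells of the J1 line at day 0, and WT_NP was neural progenitor cells (NPCs) made from them by 4 days as embryoid bodies and 2 days of retinoic acid, taken at day 6. DKO_ES and DKO_NP were the same stages of an ES line with a double knockout of Dnmt3a and Dnmt3b, which encode the de novo DNA methyltransferases. The labels do not give the number of clones, the passage number or whether cultures ran side by side, and the ES lines had earlier been kept on feeder cells that were removed by passaging.

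Clustered protocadherins sit on the surface of neurons, where each protein binds its own kind on another cell, and different neurons display different combinations, which lets a neuron tell its own branches from those of others. In the alpha and gamma clusters each variable exon has its own promoter and is spliced to constant exons shared by the whole cluster, while each beta gene is a complete gene in an exon of its own. Promoters of the alternate members are chosen with the help of CTCF and cohesin and can be silenced by DNA methylation, and the C-type members at the end of the alpha and gamma clusters follow a different and broader pattern in the brain.

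Values are FPKM, which scale fragments by transcript length and by the mapped reads of the library, as the authors deposited them, divided by a factor for each library so that the median gene is level across libraries (median-scaled FPKM). As deposited, the median log2 ratio of all genes was -0.82 for WT_NP against WT_ES, -0.43 for DKO_NP against DKO_ES, -0.06 for DKO_ES against WT_ES and 0.39 for DKO_NP against WT_NP, and all ratios below are relative to these shifts unless stated. The steps of the low FPKM values gave totals of about 15.7 M reads in WT_ES and 17.1 M in DKO_ES, against 41.3 M in WT_NP and 28.5 M in DKO_NP. Intervals beside folds are 95% exact (Clopper-Pearson) intervals of read numbers. They cover counting error only, not the spread between cultures, and those for the gamma cluster come from approximate reads. Dnmt3a stood at 35.3, 12.3, 17.2 and 4.14 FPKM as deposited in WT_ES, DKO_ES, WT_NP and DKO_NP, and Dnmt3b at 140.3, 13.9, 9.98 and 5.22, so both targeted genes were lower in the knockout library of each stage. In RNA from a whole culture, fewer cells of a type and less RNA per cell cannot be told apart.

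The 3 clusters stood at very different levels. Summed over members, the alpha cluster reached 0.246 median-scaled FPKM in WT_ES and 0.365 in DKO_ES, and 0.953 in WT_NP and 1.36 in DKO_NP. The beta cluster reached 0.451, 0.690, 13.7 and 11.5 in the same order. The gamma cluster reached 26.7, 29.6, 90.6 and 44.2. Gamma RNA was thus present in both ES cell libraries, whereas alpha RNA was close to the detection limit everywhere and beta RNA appeared mainly in the NPC libraries. All 22 gamma members were above 0 in each of the 4 libraries. Of the beta members, 12 of 22 were above 0 in WT_ES, 15 in DKO_ES and all 22 in each NPC library. Of the alpha members, 7 of 15 were above 0 in WT_ES and 8 in DKO_ES, and 13 in WT_NP and 14 in DKO_NP, and none reached 1 FPKM in any library. For scale, 3 reads in a transcript of 2 kb were worth 0.106 FPKM in WT_ES and 0.0977 in DKO_ES, and 0.0404 in WT_NP and 0.0585 in DKO_NP as deposited, so that a member listed at 0 may still have been present below such a level.

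**Figure D1:**
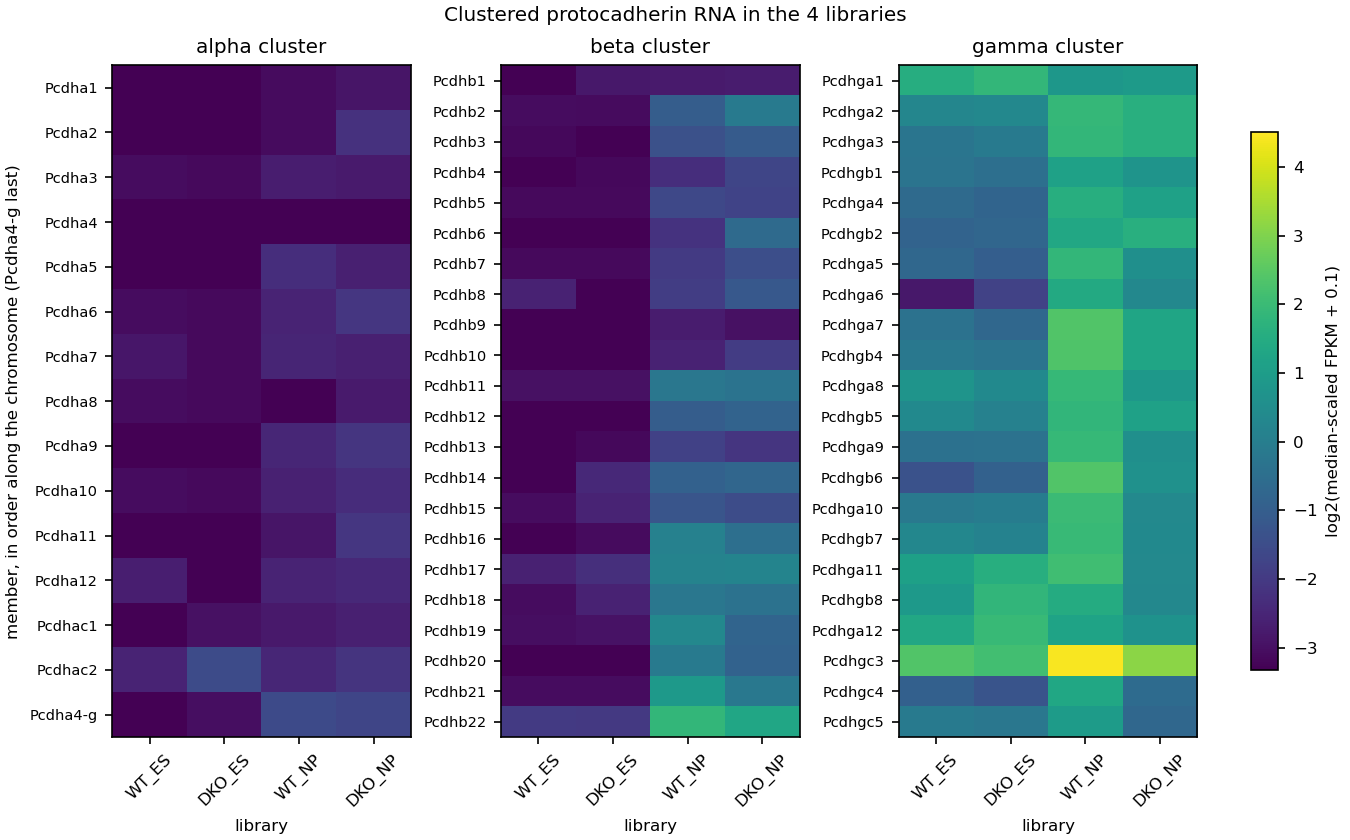
The level of each of the 59 members in each of the 4 libraries, as log2(median-scaled FPKM + 0.1), with members in their order along the chromosome and Pcdha4-g, which has no place of its own in that order, last. The alpha panel is dark throughout, the beta panel is lit in both NPC libraries, and the gamma panel is lit in all 4 libraries, with Pcdhgc3 the brightest row.

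**Figure D2:**
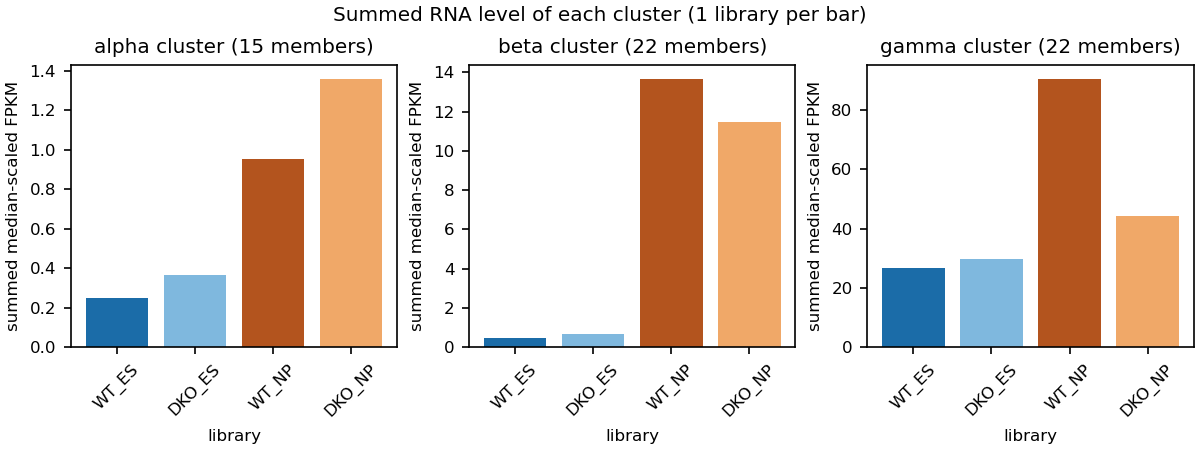
The summed median-scaled FPKM of each cluster, 1 bar per library, with a separate axis from 0 for each cluster and no error bars because each bar is a single library. The beta sum is 13.7 in WT_NP against 0.451 in WT_ES, and the gamma sum is 90.6 in WT_NP against 44.2 in DKO_NP.

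The alpha cluster was hardly detected. Its whole sum corresponded to roughly 27 reads in WT_ES and 43 in DKO_ES, against 140 in WT_NP and 180 in DKO_NP. Reads in the constant exons belong to no single alpha member, and the way they were shared out is not given in the sources used here: Pcdha6, Pcdha8 and Pcdha10 had identical values in WT_ES and again in DKO_ES. Values of single alpha members are therefore uncertain, and no fold is given for them. Pcdha4 was listed at 0 in all 4 libraries.

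The named alpha members showed the same low range. Pcdhac2, a C-type member, stood at 0.0721 median-scaled FPKM in WT_ES and 0.244 in DKO_ES, against 0.0788 in WT_NP and 0.128 in DKO_NP. It was highest in the knockout ES cells and made up 66.7% of all alpha RNA there, against 29.3% in WT_ES. Pcdhac1, the other C-type member, was listed at 0 in WT_ES and stood at 0.0281, 0.0452 and 0.0605 in DKO_ES, WT_NP and DKO_NP. Pcdha4-g, which RefSeq lists as a synonym of a readthrough gene that joins the alpha cluster to the gamma cluster, was listed at 0 in WT_ES and stood at 0.0218 in DKO_ES, 0.235 in WT_NP and 0.207 in DKO_NP. It led the alpha cluster in both NPC libraries, with 24.7% of the sum in WT_NP and 15.3% in DKO_NP. Pcdha6, an alternate member, stood at 0.0193, 0.0143, 0.0733 and 0.135 in WT_ES, DKO_ES, WT_NP and DKO_NP. Pcdha10 ran from 0.0143 in DKO_ES to 0.0984 in DKO_NP, and Pcdha12 from listed at 0 in DKO_ES to 0.0858 in DKO_NP.

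As a group, alpha members were higher in the NPC libraries. Of the 15, 13 had a ratio above 1 in WT_NP against WT_ES and 1 below, and the split was the same in DKO_NP against DKO_ES. As deposited the first of these splits was 10 against 4. In WT_NP the alpha sum was 3.87-fold its level in WT_ES (interval 2.55 to 6.08), and in DKO_NP 3.72-fold its level in DKO_ES (2.66 to 5.32). Between the ES cell libraries it was 1.48-fold higher in the knockout (0.895 to 2.49), within counting error. That direction rested on Pcdhac2: without it the log2 ratio of the sums for DKO_ES against WT_ES was -0.52 in place of 0.57, and that for DKO_NP against DKO_ES was 3.34 in place of 1.90. Between the NPC libraries the alpha sum was 1.43-fold higher in DKO_NP (1.14 to 1.79).

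Beta genes have no shared exon, so their values could be turned back into whole reads: 54 of 56 beta values under 50 reads came out within 0.1 read of a whole number. The cluster held 28 reads in WT_ES and 48 in DKO_ES, against 1260 in WT_NP and 968 in DKO_NP. Read per gene, no beta member had more than 9 reads in either ES cell library, and that member was Pcdhb22 in both.

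Most beta genes were higher in NPCs than in ES cells. All 22, including a few with too few reads to show a difference, had a ratio above 1 in WT_NP against WT_ES, and all 22 in DKO_NP against DKO_ES (21 of 22 as deposited). In WT_NP the beta sum was 30.3-fold its level in WT_ES (20.9 to 45.9), and in DKO_NP 16.6-fold its level in DKO_ES (12.4 to 22.7). Those sums are the measure with the most reads behind them, since the usual rule for counting genes leaves most of the cluster out. That rule took genes at or above 1 FPKM as deposited in at least 1 library of a pair and counted a log2 ratio, with a pseudocount of 1 FPKM, of 1 or more in size (2-fold). Only 2 of 22 beta members entered in wild type, and both were counted as higher, where 16.2% of 14086 genes entering were higher by that rule and 11.3% lower. In the knockout 1 of 22 entered and was counted as higher, where 11.8% of 14050 genes were higher and 11.2% lower. A rule for low values, with 0.1 FPKM in both places and chosen after the values were seen, let in 17 beta members in wild type, of which 16 were at least 2-fold higher and 0 lower (24.0% of all genes entering were higher). In the knockout it let in 20, all at least 2-fold higher (17.5% of all genes entering). Members that enter only through the NPC library are bound to be higher there, so these counts describe the cluster and support nothing further.

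The most abundant beta members lay toward the end of the cluster. Pcdhb22, the last gene of the cluster, stood at 0.152 median-scaled FPKM in WT_ES and 0.147 in DKO_ES, against 3.51 in WT_NP and 2.38 in DKO_NP, from 9, 9, 279 and 177 reads. It was the leading beta member in every library, with 25.7% of the beta sum in WT_NP and 20.8% in DKO_NP. Its fold between stages was 23.2 in wild type (12.0 to 51.2) and 16.2 in the knockout (8.36 to 36.1). Pcdhb21, its neighbour, had 1 read in each ES cell library, 120 in WT_NP and 50 in DKO_NP. Its folds of 89.7 in wild type (15.8 to 3573) and 41.3 in the knockout (7.07 to 1662) have wide intervals because a single read stands below the line.

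Other leading beta genes showed the same contrast between stages. Pcdhb17 stood at 0.0629 in WT_ES and 0.107 in DKO_ES, against 1.02 in WT_NP and 1.04 in DKO_NP, from 4, 7, 87 and 83 reads. Pcdhb19 stood at 0.0214, 0.0311, 1.16 and 0.470, from 2, 3, 145 and 55 reads. Both were low in ES cells of either genotype and higher in each NPC library. Pcdhb16 was listed at 0 in WT_ES and had 2 reads in DKO_ES, 139 in WT_NP and 82 in DKO_NP, and was at least 34.7-fold higher in WT_NP than the 3 reads that a listing at 0 allows in WT_ES. Pcdhb20 was listed at 0 in both ES cell libraries and had 73 reads in WT_NP and 37 in DKO_NP, at least 18.2-fold and at least 10.2-fold higher.

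Not every beta gene reached a measurable level in NPCs. Pcdhb1, the first gene of the cluster, had 0, 2, 3 and 3 reads in WT_ES, DKO_ES, WT_NP and DKO_NP, and Pcdhb9 had 0, 0, 4 and 2. For these the data cannot show a difference between any libraries. At 5 and 11 reads in WT_NP and DKO_NP, Pcdhb10 was the next lowest gene by its larger value. The reads were spread over many genes all the same: 4 members made up at least 50% of the beta sum in WT_NP and 6 members in DKO_NP.

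**Figure D3:**
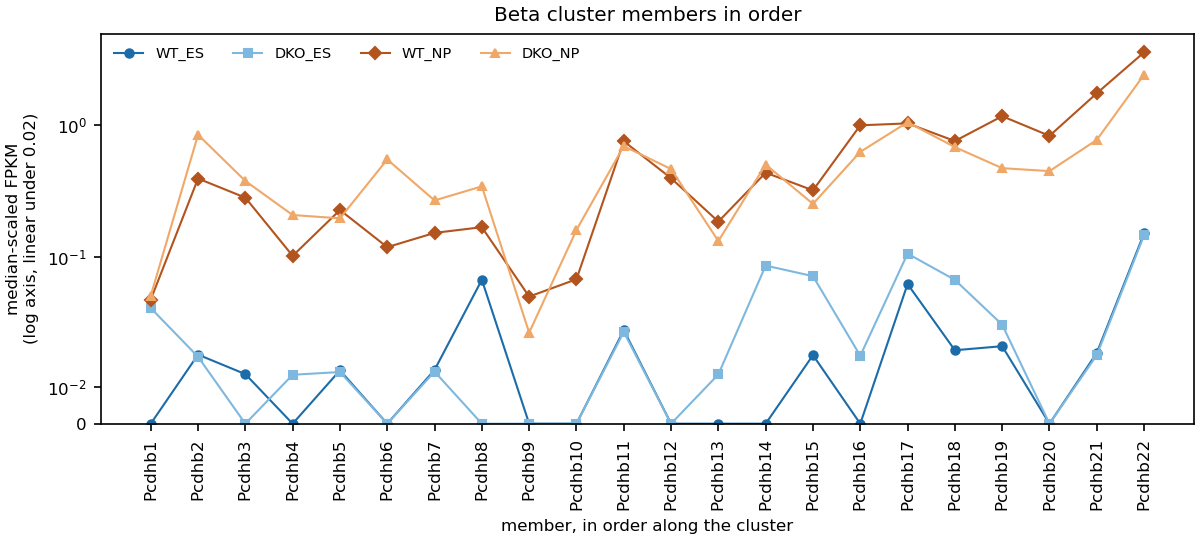
Median-scaled FPKM of the 22 beta members in their order along the cluster, 1 line per library, on a logarithmic axis that is linear under 0.02. Both NPC lines lie above both ES lines for nearly every member, with Pcdhb22 highest at 3.51 in WT_NP and 2.38 in DKO_NP, and the WT_NP line climbs toward the end of the cluster.

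Gamma genes were already expressed in ES cells, but unevenly. Pcdhgc3, the C-type member known for broad expression outside neurons, was the leading gene of the family in every library, at 5.09 median-scaled FPKM in WT_ES and 4.27 in DKO_ES, against 21.2 in WT_NP and 8.68 in DKO_NP. It held 19.1% of the gamma sum in WT_ES and 14.4% in DKO_ES, against 23.4% in WT_NP and 19.6% in DKO_NP. The other high members of ES cells were Pcdhga1, the first gene of the cluster, and the run Pcdhga11, Pcdhgb8 and Pcdhga12 just before the C-type exons. Pcdhga1 stood at 2.84 in WT_ES and 3.49 in DKO_ES, against 1.65 in WT_NP and 1.81 in DKO_NP. Pcdhga12 stood at 2.48, 3.78, 2.21 and 1.47. Both were lower in NPCs than in ES cells of the same genotype, although for Pcdhga12 in wild type the fold of 1.12 lies within counting error (0.944 to 1.33). Gamma members also share constant exons, so that some of each member's reads may have been assigned to it by a rule that is not given in the sources used here. Pcdhgb8 is annotated as a transcribed pseudogene in RefSeq.

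The order of the gamma members was almost the same in the ES libraries of both genotypes and differed between stages. Over the 22 members, Spearman's rho of the FPKM values was 0.976 between WT_ES and DKO_ES, 0.263 between WT_NP and DKO_NP, 0.034 between WT_ES and WT_NP and 0.169 between DKO_ES and DKO_NP. In the beta cluster rho was 0.806 between the NPC libraries and 0.498 between the ES libraries, where most members had a few reads or none. These coefficients describe genes that share an annotation, gene lengths and, in the gamma cluster, constant exons, and no test is attached to them.

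In wild type the gamma cluster was higher in NPCs. By the usual rule 14 of 22 members were at least 2-fold higher in WT_NP than in WT_ES and 0 lower, beside the 16.2% and 11.3% of all genes given above. Of the 14, Pcdhga3, Pcdhga4, Pcdhga5, Pcdhga6, Pcdhga7, Pcdhga9, Pcdhgb2, Pcdhgb6 and Pcdhgc4 entered only through WT_NP and were bound to be higher there. The count therefore describes the cluster and supports nothing further. The median log2 ratio of the 22 was 1.26 against 0.01 over all genes entering. The 14 were 8 of 12 A-type, 4 of 7 B-type and 2 of 3 C-type members, and the gamma sum was 3.39-fold higher (3.25 to 3.55). Without scaling 5 members were at least 2-fold higher and 1 lower. That leaves the direction of the sum in place, at a log2 ratio of 0.79 as deposited and 1.76 scaled.

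Among these genes Pcdhgb6 had the largest log2 ratio with a pseudocount of 1 FPKM, while without a pseudocount the fold of Pcdhga6, named after its values were seen, was larger, at 62.9 (24.0 to 239). Pcdhgb6 stood at 0.291 in WT_ES and 0.443 in DKO_ES, against 5.04 in WT_NP and 1.44 in DKO_NP, 17.3-fold higher in wild-type NPCs than in wild-type ES cells (11.8 to 26.5). Pcdhga7 stood at 0.666, 0.515, 5.08 and 2.31, 7.63-fold higher (5.88 to 10.1). Both began low in ES cells and were the highest A- and B-type members in WT_NP. Pcdhgc3 was 4.15-fold higher (3.76 to 4.59). The next C-type exon, Pcdhgc4, stood at 0.427 in WT_ES and 0.305 in DKO_ES, against 2.42 in WT_NP and 0.569 in DKO_NP with a wild-type fold of 5.67 between stages (4.11 to 8.0). Pcdhgc5, the last exon, stood at 0.807, 0.766, 1.86 and 0.508 and was 2.30-fold higher in that pair (1.77 to 3.02).

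In the knockout the same step gave a smaller difference for the cluster as a whole. Of 20 gamma members that entered, 4 were at least 2-fold higher in DKO_NP than in DKO_ES (Pcdhga3, Pcdhga4, Pcdhga7 and Pcdhgb2) and 1 was at least 2-fold lower (Pcdhgb8), beside the 11.8% and 11.2% of all genes. Of the 4, Pcdhga4, Pcdhga7 and Pcdhgb2 entered only through DKO_NP and were bound to be higher there. The median log2 ratio over the 20 was 0.71, against -0.03 over all genes entering. The gamma sum was 1.49-fold higher (1.42 to 1.56), and as deposited the sums were nearly level, with a log2 ratio of 0.11. Without scaling the counts turned over, to 1 member at least 2-fold higher and 4 lower. With a pseudocount of 0.1 FPKM 12 members were at least 2-fold higher and 3 lower (Pcdhga11, Pcdhga12 and Pcdhgb8), so the count depends strongly on how low values are treated. The rule for low values gave the same counts, where 17.5% of all genes entering were higher and 15.4% lower. The 3 lower do not stand apart from that share.

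The 3 members with the largest ratio upward in this pair, with a pseudocount of 1 FPKM, were Pcdhgb2, Pcdhga7 and Pcdhga3. Without a pseudocount the fold of Pcdhga6 was the largest, at 6.08 (3.72 to 10.5). Pcdhgb2 stood at 0.456 in WT_ES and 0.50 in DKO_ES, against 2.50 in WT_NP and 2.99 in DKO_NP, and was 5.98-fold higher in DKO_NP than in DKO_ES (4.41 to 8.28) and 5.48-fold higher in the wild-type pair (3.96 to 7.75). Pcdhga3 stood at 0.715, 0.838, 3.50 and 2.95, with folds of 3.51 in the knockout (2.75 to 4.53) and 4.89 in wild type (3.78 to 6.43). For these genes the intervals of the wild-type and the knockout fold overlapped. Pcdhga7 was 4.48-fold higher in DKO_NP than in DKO_ES (3.30 to 6.19).

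At the other end of the A- and B-type run the genotypes parted. Pcdhga11 stood at 2.09 in WT_ES and 2.92 in DKO_ES, against 4.21 in WT_NP and 1.18 in DKO_NP. Between stages it was 2.01-fold higher in the wild-type NPCs (1.71 to 2.38) and 2.49-fold lower in DKO_NP than in DKO_ES (2.02 to 3.07). As deposited its wild-type values were nearly level, at 2.75 FPKM in WT_ES and 2.82 in WT_NP. Pcdhgb8 stood at 1.75, 3.45, 2.69 and 1.15 median-scaled FPKM in WT_ES, DKO_ES, WT_NP and DKO_NP and was 3.0-fold lower in DKO_NP than in DKO_ES (2.44 to 3.70). In wild type it was 1.53-fold higher in WT_NP (1.27 to 1.86), a direction that turns as deposited, where its FPKM were 2.31 and 1.8. Pcdhga12 was 2.57-fold lower in DKO_NP than in DKO_ES (2.15 to 3.07).

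**Figure D4:**
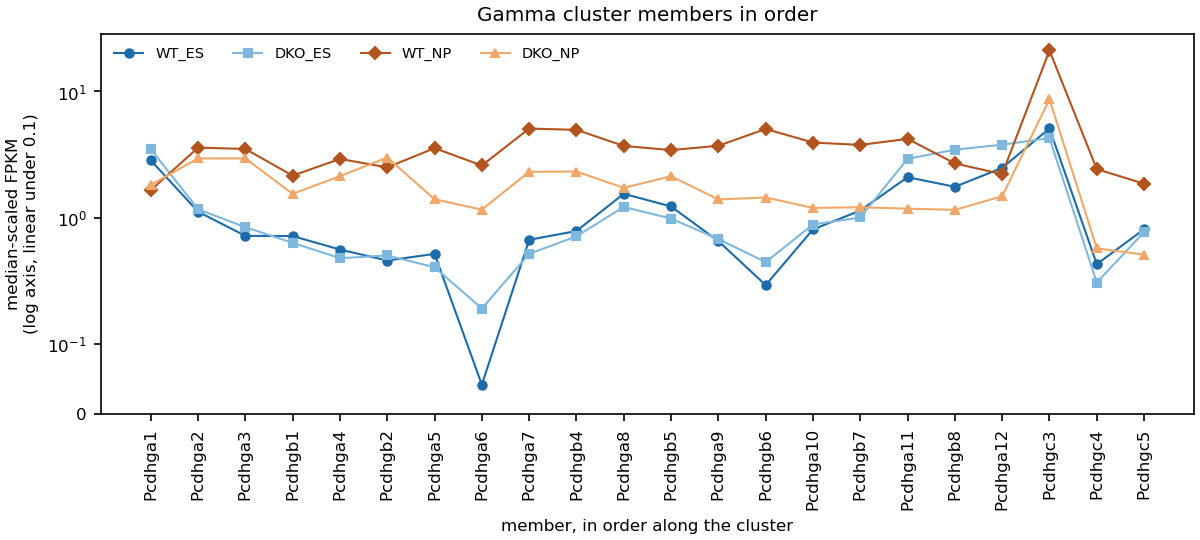
Median-scaled FPKM of the 22 gamma members in their order along the cluster, 1 line per library, on a logarithmic axis that is linear under 0.1. The WT_ES and DKO_ES lines run close together with high points at Pcdhga1, Pcdhga11 to Pcdhga12 and Pcdhgc3, while WT_NP lies above DKO_NP from Pcdhga5 to the end of the cluster.

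Between ES cells of the 2 genotypes no gamma member that entered reached 2-fold by the usual rule, and alpha and beta RNA was too low to be judged by it. Loss of Dnmt3a and Dnmt3b, the enzymes that set new DNA methylation, was the only labelled difference in this pair, and 3 of the 5 fibroblast markers that entered were at least 2-fold lower in DKO_ES, whose part in the results was not tested. By the usual rule 0 of 13 gamma members that entered were at least 2-fold higher in DKO_ES than in WT_ES and 0 lower, where 2.56% of 13596 genes were higher and 1.15% lower, and no alpha or beta member entered. With so few genes entering, these counts do not set the members apart from other genes. The gamma sum was 1.11-fold higher in DKO_ES (1.05 to 1.17), and the members split evenly, 11 above and 11 below their wild-type level. The beta sum was 1.53-fold higher (0.941 to 2.53), a difference that 28 and 48 reads do not separate from counting error.

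Some gamma members differed between the ES libraries beyond counting error, in both directions. Pcdhgb8 was 1.97-fold higher in DKO_ES (1.62 to 2.39), Pcdhga12 1.53-fold higher (1.3 to 1.8) and Pcdhga11 1.40-fold higher (1.16 to 1.69), and they are neighbours in the cluster. Pcdhga1 was 1.23-fold higher (1.04 to 1.45). In the other direction Pcdhgc3 was 1.19-fold lower in DKO_ES (1.04 to 1.37), and the sum of the C-type gamma members was 1.19-fold lower (1.05 to 1.34). Pcdhga6 was the lowest gamma gene of the ES cells. It stood at 0.0412 in WT_ES and 0.190 in DKO_ES, 4.61-fold higher (1.5 to 19.2), and was the only gamma member at least 2-fold higher by the rule for low values, by which 6.31% of all genes were higher and 3.81% lower. Pcdhga6 entered by that rule only through DKO_ES, so it was bound to be higher there. As 1 of 22 members it does not stand apart from the share of all genes. It stood at 2.59 in WT_NP and 1.15 in DKO_NP.

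Between NPCs of the 2 genotypes most gamma members were lower in the knockout. By the usual rule 6 of 22 were at least 2-fold lower in DKO_NP than in WT_NP and 0 higher, where 7.99% of 13601 genes were lower and 4.76% higher. The 6 were Pcdhga10, Pcdhga11, Pcdhgb6, Pcdhgb7, Pcdhgc3 and Pcdhgc4. Of these Pcdhgc4 entered only through WT_NP and was bound to be lower in DKO_NP. The median log2 ratio of the 22 was -0.82 against 0.01 over all genes entering, and 20 of 22 were below their wild-type level. The gamma sum was 2.05-fold lower (1.98 to 2.12). As deposited 18 of 22 were lower and 0 reached 2-fold by this rule, and the log2 ratio of the sums was -0.60. With a pseudocount of 0.1 FPKM 14 of 22 were at least 2-fold lower. The rule for low values gave the same count, where 14.8% of all genes entering were lower and 8.53% higher.

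Pcdhgb6 was 3.50-fold lower in DKO_NP than in WT_NP (2.95 to 4.18), Pcdhga11 3.58-fold lower (2.97 to 4.35) and Pcdhgc3 2.44-fold lower (2.27 to 2.62). Pcdhgc4 was 4.25-fold lower (3.28 to 5.58) and Pcdhgc5 3.65-fold lower (2.74 to 4.94), so that all 3 C-type gamma members took part. In DKO_NP Pcdhgc3 lay above its levels in both ES libraries and Pcdhgc5 below both. Pcdhgc4 lay above both after scaling and, as deposited, below WT_ES (0.517 against 0.563 FPKM). Pcdhga1 and Pcdhgb2 were the 2 members not lower, at 1.10-fold (0.903 to 1.34) and 1.20-fold (1.02 to 1.40) of their wild-type level.

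The beta cluster did not move as a block in this pair. Of the 22, 11 were above and 11 below their wild-type level (15 and 7 as deposited). The sum was 1.19-fold lower in DKO_NP (1.1 to 1.3), and higher as deposited, with a log2 ratio of 0.18, so that its direction depends on the scaling. Neither of the 2 members that entered the usual rule was 2-fold different. By the rule for low values Pcdhb6 was at least 2-fold higher in DKO_NP, and Pcdhb19 and Pcdhb21 at least 2-fold lower, where 8.53% of all genes were higher and 14.8% lower.

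Pcdhb6 had 11 reads in WT_NP and 48 in DKO_NP and was 4.58-fold higher in the knockout (2.35 to 9.79). Pcdhb2, named like Pcdhb6 after its values were seen, had 28 and 56 reads and was 2.14-fold higher (1.34 to 3.50). Both lie in the first part of the cluster, where RNA was scarce in WT_NP. Pcdhb19 was 2.47-fold lower in DKO_NP (1.8 to 3.43), Pcdhb21 2.24-fold lower (1.60 to 3.19) and Pcdhb22 1.47-fold lower (1.22 to 1.79). Pcdhb17, which lies among them, was level, at 1.02-fold of wild type (0.746 to 1.39).

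Position along the cluster went with the NPC ratio in both clusters. The genes were put in the order of RefSeq's assembly GRCm38.p6, and the split into the first and the last 11 was made after the values were seen. The log2 ratios set against position here used a pseudocount of 0.1 FPKM. Over the 22 beta genes Spearman's rho between position and the log2 ratio of DKO_NP to WT_NP was -0.74 (-0.69 as deposited), and over the 22 gamma genes -0.76 with and without scaling. For gamma without its C-type exons rho was -0.72 over 19 genes. Neighbouring genes share their region, and gamma members their constant exons, so these coefficients carry no test.

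In the beta cluster the position split the direction. Of the first 11 genes, Pcdhb1 to Pcdhb11, 8 were above and 3 below their wild-type level, and of the last 11, Pcdhb12 to Pcdhb22, 3 were above and 8 below. The first 11 together had 205 reads in WT_NP and 294 in DKO_NP, and their sum was 1.57-fold higher in DKO_NP (1.31 to 1.89). The last 11 together had 1055 and 674 reads, and their sum was 1.46-fold lower (1.32 to 1.61). As deposited 10 of the first 11 and 5 of the last 11 were higher in DKO_NP.

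In the gamma cluster the position split the size of the difference. The first 6 genes, Pcdhga1 to Pcdhgb2, ranged from 0.716 to 1.20 of their wild-type level with a median of 0.831, and the 16 genes from Pcdhga5 to Pcdhgc5 ranged from 0.235 to 0.668 with a median of 0.402, so that the ranges did not overlap. This boundary too was drawn after the values were seen. The sum of the first 11 gamma genes was 1.56-fold lower in DKO_NP (1.48 to 1.63) and that of the last 11 was 2.60-fold lower (2.48 to 2.73). Between the ES libraries rho with position was 0.16 in the beta cluster, where members had 0 to 9 reads, and -0.04 in the gamma cluster. Between stages rho was 0.80 for beta and -0.17 for gamma in wild type, and 0.32 for beta and -0.58 for gamma in the knockout, in pairs that share their NPC library with the comparison of genotypes.

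**Figure D5:**
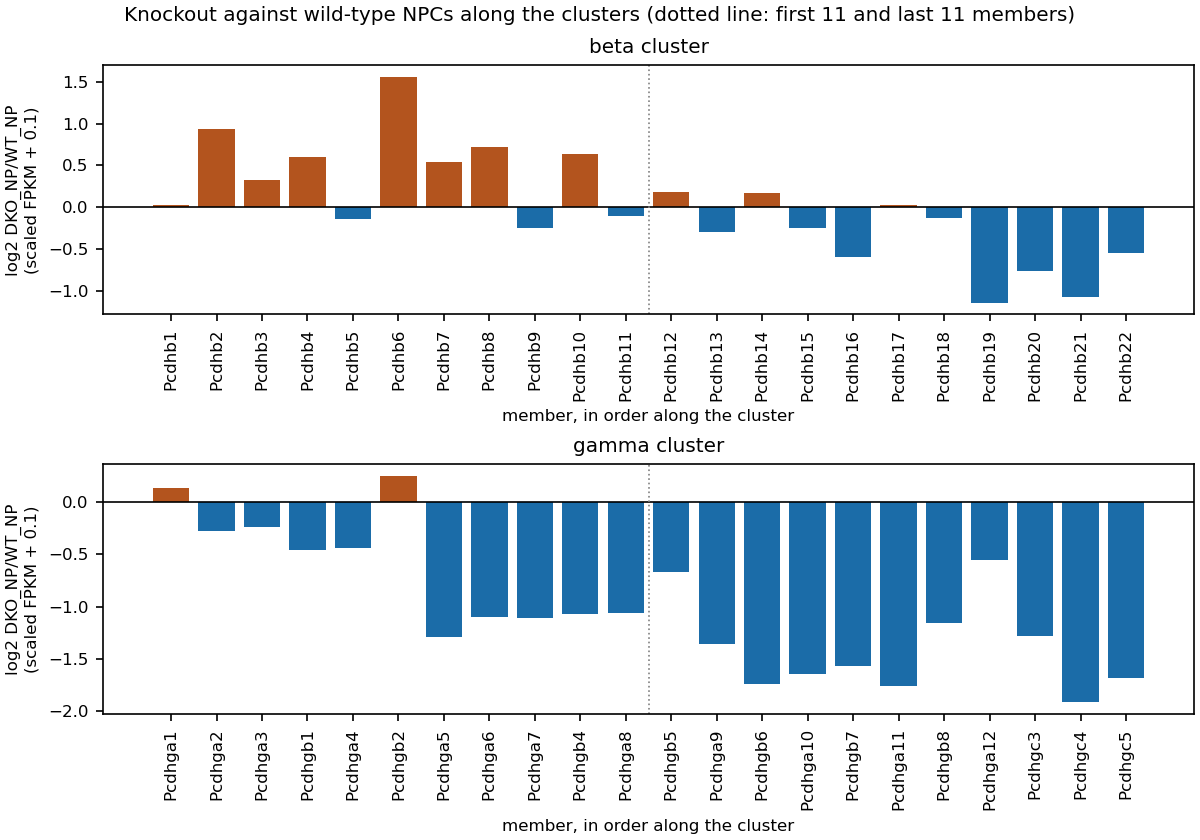
The log2 ratio of DKO_NP to WT_NP, from median-scaled FPKM + 0.1, for the 22 beta members (top) and the 22 gamma members (bottom) in their order along each cluster, with bars above 0 higher in the knockout. In the beta cluster 8 of the first 11 bars and 3 of the last 11 point up, and in the gamma cluster every bar from Pcdhga5 on points down.

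The 2 differentiation ratios were also set against each other, as the log2 ratio in the knockout minus that in wild type. By the usual rule 5 of 22 gamma members were at least 1 lower on this scale (Pcdhga10, Pcdhga11, Pcdhgb6, Pcdhgb7 and Pcdhgb8) and 0 at least 1 higher, where 1296 of 14713 genes entering were lower and 634 higher. The median difference was -0.82 over the gamma cluster and 0.00 over all genes. For beta, the 2 members that entered had a median of -0.52 and neither reached 1 in size. By the rule for low values 11 of 22 gamma members were at least 1 lower and 0 higher, and of 20 beta members 2 were lower (Pcdhb19 and Pcdhb21) and 2 higher (Pcdhb6 and Pcdhb8), where 3001 of 18314 genes entering were lower and 1521 higher. With 1 library per group the difference of ratios was not tested.

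The cultures of the 2 genotypes also differed in other cell type markers, whose part in the protocadherin results was not tested. By the usual rule 4.76% of all genes entering were at least 2-fold higher in DKO_NP than in WT_NP, and 7.99% lower. Between stages the shares were 16.2% higher and 11.3% lower in wild type, and 11.8% and 11.2% in the knockout. Summed markers of neural progenitors (9 genes) stood at 22.3 median-scaled FPKM in WT_ES and 28.2 in DKO_ES, against 71.7 in WT_NP and 219 in DKO_NP, and 6 of the 7 that entered were at least 2-fold higher in DKO_NP than in WT_NP. Of the 9, Olig2 and Fabp7 were listed at 0 in WT_ES and Olig2 in DKO_ES, and none in the NPC libraries. Summed markers of postmitotic neurons (9 genes) stood at 157.8, 155.9, 15.0 and 53.6 in the same order, with 4 of the 6 that entered at least 2-fold higher in DKO_NP than in WT_NP. Most of the ES sums was Stmn2 and Tubb3, at 138.4 and 59.0 FPKM as deposited in WT_ES and 108.2 and 71.9 in DKO_ES. Between stages 5 entered in wild type, with 0 at least 2-fold higher and 3 lower. In the knockout 7 entered, with 2 higher (Dcx and Elavl4) and 1 lower (Stmn2). Olig2 and Nkx6-1, both under 1 FPKM in every library, were 7.01-fold and 1.62-fold lower in DKO_NP than in WT_NP.

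Summed markers of endoderm, mesoderm and red cells were lower in DKO_NP than in WT_NP. In that pair 7.99% of all genes entering were at least 2-fold lower and 4.76% higher. Endoderm markers (7 genes) summed to 2.75, 1.29, 184.6 and 31.5 in WT_ES, DKO_ES, WT_NP and DKO_NP, with 5 at least 2-fold lower in DKO_NP than in WT_NP, and Ttr was listed at 0 in both ES libraries. Markers of mesoderm and endothelium (7 genes) summed to 31.0, 26.0, 112.8 and 25.4, with 4 at least 2-fold lower, and Foxf1a was listed at 0 in WT_ES. Pecam1, at 38.0, 29.5, 5.08 and 8.53 FPKM as deposited in the same order, made up most of the sum in both ES libraries. It was 1.24-fold higher in DKO_NP than in WT_NP. Of 6 that entered in DKO_NP against DKO_ES, 4 were at least 2-fold higher (Cdh5, Kdr, Foxc2 and Pdgfra) and 1 lower (Pecam1). Of all genes entering there, 11.8% were higher and 11.2% lower. The 3 embryonic globin genes of red cells were listed at 0 in WT_ES, summed to 0.115 in DKO_ES, to 1138 in WT_NP and 80.3 in DKO_NP, and all 3 were at least 2-fold lower in DKO_NP. Fibroblast markers (6 genes) summed to 46.3, 12.6, 83.0 and 37.4, with 2 at least 2-fold lower in DKO_NP than in WT_NP and 3 at least 2-fold lower in DKO_ES than in WT_ES (Col1a1, Tagln and Col1a2). Between the ES libraries 1.15% of all genes entering were lower. Like the neural markers, ES cell markers (8 genes) had a higher sum in DKO_NP than in WT_NP. They summed to 5679, 6610, 144.1 and 448.9, with 5 at least 2-fold higher in DKO_NP than in WT_NP. The labelled NPC cultures thus held RNA of several lineages beside neural progenitors.

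The non-clustered protocadherins, which are separate genes with adhesion roles of their own, followed no common pattern between NPCs. Of 12 genes, 4 entered in WT_NP against WT_ES and 3 were at least 2-fold higher (Pcdh18, Pcdh7 and Pcdh17), where 16.2% of all genes were. In the knockout 5 entered and 4 were higher (Pcdh8, Pcdh18, Pcdh19 and Pcdh12), where 11.8% of all genes were. The genes counted as higher entered only through the NPC library, so these counts describe the set and support nothing further. Pcdh8 stood at 0.268, 0.317, 0.937 and 7.21 FPKM as deposited in WT_ES, DKO_ES, WT_NP and DKO_NP and was 5.69-fold higher in DKO_NP than in WT_NP. Pcdh7 stood at 0.182, 0.0108, 4.13 and 0.549 and was 10.2-fold lower in DKO_NP. Pcdh19 was 4.43-fold higher in DKO_NP. Between ES libraries 1 of the 12 entered and did not pass 2-fold, and the others were under 1 FPKM in both. Single genes of this set thus lay on both sides, while the gamma genes lay mostly on the lower side.

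Genes that act on protocadherin promoters were counted in the same way. Of 24 genes for CTCF, cohesin, silencing factors and DNA methylation, 4 were at least 2-fold lower in WT_NP than in WT_ES (Dnmt3l, Dnmt3b, Rest and Trim28), where 11.3% of all genes were lower. In DKO_NP against DKO_ES 2 were at least 2-fold lower (Dnmt3l and Rest), where 11.2% of all genes were. Rest, a repressor of neuronal genes, was 4.99-fold lower in WT_NP than in WT_ES and 3.95-fold lower in DKO_NP than in DKO_ES. Ctcf stood at 76.3, 58.6, 33.7 and 48.9 FPKM as deposited in WT_ES, DKO_ES, WT_NP and DKO_NP, and neither Ctcf nor a cohesin gene passed 2-fold in any pair. Between genotypes the targeted genes passed 2-fold at both stages, and beside them Dnmt3l, a cofactor of the missing enzymes, was 5.26-fold higher in DKO_NP than in WT_NP.

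Of 19 genes for proteins that bind or cut protocadherins or act downstream of them, 18 entered between stages in each genotype. In WT_NP against WT_ES 4 were at least 2-fold higher and 1 lower, where 16.2% of all genes were higher and 11.3% lower. In DKO_NP against DKO_ES 3 were higher and 0 lower, where the shares were 11.8% and 11.2%. With so few genes, the counts are not set apart from those shares. None passed the rule between genotypes at either stage, where 1.15% to 7.99% of all genes passed it in either direction. The fold of Ptk2b without a pseudocount was 2.08 in DKO_NP against WT_NP. Marcks, whose protein acts at the membrane skeleton, was 4.23-fold higher in WT_NP and 3.48-fold higher in DKO_NP than in the ES cells of the same genotype. Adam10, the protease that sheds the outer part of gamma protocadherins, was 2.93-fold and 2.30-fold higher, and Ret, a receptor kinase bound by them, 6.21-fold and 9.80-fold higher. The kinase gene Ptk2b was 5.28-fold lower in WT_NP than in WT_ES, and Nlgn2, a synaptic adhesion gene, was 2.48-fold higher.

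Of 18 genes that flank the clusters or lie between them, 1 was at least 2-fold higher (Arap3) and 3 lower (Dnd1, Taf7 and Diap1) in WT_NP than in WT_ES, where 16.2% of all genes were higher and 11.3% lower. In the knockout 0 were higher and 2 lower (Diap1 and Dnd1), where the shares of all genes were 11.8% and 11.2%. Taf7, a gene of the basal transcription machinery that lies between the beta and gamma clusters, stood at 60.8, 58.2, 9.23 and 21.2 FPKM as deposited in WT_ES, DKO_ES, WT_NP and DKO_NP and was 3.35-fold lower in WT_NP than in WT_ES while Pcdhb22, the nearest beta gene, was higher. Slc25a2, a mitochondrial carrier gene in the same gap, ranged from 0.768 to 1.17 FPKM as deposited over the 4 libraries. Between NPC libraries 1 of the 16 flanking genes that entered was at least 2-fold lower in DKO_NP, Arap3, which lies beyond the gamma cluster and was 3.29-fold lower.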

How the data were processed

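Each of 4 libraries stands for 1 group. The labels' protocols describe rRNA depletion of 5 µg RNA, TruSeq libraries with 15 PCR cycles and single-end sequencing of 50 cycles. TopHat, Bowtie and the build mm9 are named in the submitters' processing notes. Not given in the sources used here are versions, the annotation, the program that made FPKM and how it shared out reads. The authors deposited FPKM for 23235 symbols, with 18 blank rows left out and 0 unmapped columns.

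Python 3.11.15 was used with pandas 2.3.3 and scipy 1.17.1. For median scaling, each library was divided by its median ratio to the 4-library geometric mean, taken over genes that reach 1 FPKM in every library (factors 1.32, 1.25, 0.671 and 0.908 for WT_ES, DKO_ES, WT_NP and DKO_NP). Unless another is named, log2 ratios of single genes used a pseudocount of 1 FPKM, which understates differences of low genes. Those set against position used 0.1 FPKM, and those of cluster sums used none. Folds have no pseudocount. Since each pair sets 1 library against 1, no test was run.

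Whole reads were recovered from FPKM with RefSeq lengths less a fixed offset: of 91 to 102 intronless genes of few reads per library, 84.6% to 87.8% came out whole within 0.04 read. The steps were tested on simulated data. Gamma and alpha reads are approximate. RefSeq (GRCm38.p6) matched 58 of 59 symbols and gave gene order, the lengths of beta and intronless genes, gene annotation and older symbols. Lengths behind the gamma and most alpha reads came from transcripts of GENCODE release M21. No coordinates or sequences are printed, since the values were made on mm9.

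The named members were the C-type members, the 5 with the highest mean FPKM per cluster, the 3 largest ratios per cluster and pair among those entering, and members listed at 0 throughout. Members of other lists were named where at least 2-fold, up to 6 per list and pair. Further named members are marked as chosen after their values were seen. The members, lists and markers were chosen with earlier results of these data known. Wapl, Diaph1 and Map2 were found as Wapal, Diap1 and Mtap2. Alternatives were no scaling, upper-quartile scaling (75th percentile), a pseudocount of 0.1 FPKM, no filter, a filter at 5 FPKM, sums without the leading member and, added after seeing the data, 0.1 FPKM as both pseudocount and filter. Of the regulator list, 1 gene is not reported here.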

Additional observations from a re-analysis of the deposited data

Results flagged for a closer look

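The log2 ratio of Pcdhga11 between stages, with a pseudocount of 1 FPKM, was 0.75 in wild type and -0.85 in the knockout, a difference of -1.61 (knockout minus wild type), and it drew attention because the single libraries of the genotypes moved in opposite directions by at least 0.5. As deposited its wild-type values were nearly level, at 2.75 FPKM in WT_ES and 2.82 in WT_NP, so the flag depended on the scaling. The difference was not tested.

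For Pcdhgb8 the log2 ratio of knockout to wild type was 0.69 in ES cells and -0.78 in NPCs, a difference of -1.47 (NPCs minus ES cells), which drew attention for the same reason. It was not tested either.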

How the results depend on the processing

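Of 134 alternative values 97 kept their side and stayed near the main value, 36 moved and 1 turned beyond counting error. Among those that moved, the alpha sum without Pcdhac2 changed sign for DKO_ES over WT_ES, where its main ratio lay within counting error. Upper-quartile scaling and dropping the filter moved none of them. As deposited, log2 ratios of the sums were 0.98 (alpha), 3.95 (beta) and 0.79 (gamma) for WT_NP over WT_ES, 3.59 (beta) and 0.11 (gamma) for DKO_NP over DKO_ES, and 0.95 (alpha), -0.60 (gamma) and, turned from the main -0.25, 0.18 (beta) for DKO_NP over WT_NP. Without scaling the gamma cluster had 5 members higher and 1 lower in WT_NP than WT_ES, 1 higher and 4 lower in DKO_NP than DKO_ES, and 0 lower in DKO_NP than WT_NP. A filter at 5 FPKM left gamma counts of 1 higher, 0 higher, 0 lower and 1 lower in WT_NP over WT_ES, DKO_NP over DKO_ES (both directions) and DKO_NP over WT_NP, because few members reach it. A pseudocount of 0.1 FPKM gave gamma counts of 12 higher and 3 lower in DKO_NP over DKO_ES and 14 lower in DKO_NP over WT_NP, and 1 beta member lower there. With the filter also at 0.1 FPKM, added after seeing the data, the gamma counts were the same, with 1 higher in DKO_ES over WT_ES; the beta counts were 16 and 20 higher in WT_NP over WT_ES and DKO_NP over DKO_ES, and 1 higher and 2 lower in DKO_NP over WT_NP; the alpha counts were 1 and 5 higher in WT_NP over WT_ES and DKO_NP over DKO_ES. Without Pcdhgc3 the log2 ratios of the gamma sums were 1.68, 0.49, 0.23 and -0.97 for WT_NP over WT_ES, DKO_NP over DKO_ES, DKO_ES over WT_ES and DKO_NP over WT_NP. Without Pcdhac2 those of the alpha sums were 3.34 for DKO_NP over DKO_ES and -0.52 for DKO_ES over WT_ES. Where no construction is named the cause was not tested. No paired analysis was possible because each group holds 1 library, and for the same reason no replicate could be left out. Filters at 5 FPKM gave no alpha or beta value, since no such member reaches 5 FPKM. Depth limits the beta members in ES cells, which had at most 9 reads each, and all alpha members.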
